A study of Mus musculus with 11 samples.

Results

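The regions described here are stretches of open chromatin inside introns. They were found in mouse embryo cells sorted as dopaminergic (DA) and as serotonergic (5-HT) neurons. Each region was chosen by its ATAC-seq scores: a score above 0 in all 5 libraries, a width under 4000 bp and a centre that lay in an intron of the GENCODE annotation of mm9 and outside every exon and every promoter window (1 kb upstream to 100 bp downstream of a transcription start site, TSS). 3872 regions passed, out of 131942 regions in the deposited list, 51602 intronic regions and 16856 regions with a score in all 5 libraries. They made up 23.0% of these 16856 shared regions (95% Wilson interval 22.3 to 23.6).

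The neurons came from embryos at E14.5. DA neurons were sorted by FACS as GFP-positive cells from the ventral mesencephalon of TH-GFP mice, a line kept on C57BL/6J in which a Th promoter drives GFP, with 5 to 15 mesencephalons pooled for each of 3 libraries. 5-HT neurons were sorted as YFP-positive cells from rhombomeres r1 to r3 of mice of a CRE driver line crossed to a ROSA YFP reporter line, with 4 to 8 embryos pooled for each of 2 libraries, and the mothers of all embryos were wild-type Swiss mice. Each library came from its own sort, with fewer sorted cells for each 5-HT library than for any DA library. Cell type goes together with brain region, reporter line, sort gate and number of sorted cells in every library. The 2 cell types cannot be told apart from these.

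ATAC-seq reads open DNA through the insertions of a transposase, and intronic open regions are where many enhancers of neuronal genes lie. An intron can hold enhancers of its own gene or of a distant one, and it can also hold alternative promoters, so the gene around a region is its address and not necessarily its target. Developing neurons of different transmitter types are known to share general neuronal programmes of axon growth, adhesion and excitability while differing in the enzymes and transporters of their transmitter.

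The deposited value of a region is a score per library, whose scale is not named, and it is 0 where the library has no peak. Read depth is not known from the files, and the part of sorted cell number in peak counts and scores was not tested. The libraries held 52861, 93055 and 94351 peaks in DA replicates 1 to 3 and 38772 and 22879 in 5-HT replicates 1 and 2. The shared intronic regions were 7.32%, 4.16% and 4.10% of the peaks of the DA libraries and 9.99% and 16.9% of those of the 5-HT libraries. 5-HT replicate 2, with the fewest peaks, set the size of the group: of 4495 intronic regions with a peak in exactly 4 libraries, 3559 lacked only this library, 542 lacked 5-HT replicate 1, and 341, 12 and 41 lacked DA replicates 1 to 3. Without 5-HT replicate 2 the same choice gave 7431 regions.

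At the edge of the score threshold, the lowest scores of any shared intronic region were 3.45, 3.06 and 3.03 in DA replicates 1 to 3 and 3.37 and 2.83 in 5-HT replicates 1 and 2. The lowest scores above 0 of any region of these libraries were 3.45, 3.04, 3.03, 3.37 and 2.83, so the threshold lay at the floor of each library. The 3559 intronic regions that failed only through 5-HT replicate 2 had median scores of 5.20, 5.86 and 5.39 in DA replicates 1 to 3 and 4.15 in 5-HT replicate 1. At the width threshold, the widest region inside lay in A530032D15Rik (chr1:85081421-85085361, 3941 bp) and scored 6.20, 4.83 and 6.47 in DA and 4.14 and 3.09 in 5-HT. The narrowest region outside, one of 22 shared intronic regions left out for width, was 4020 bp wide (chr13:5859755-5863774) and scored 8.61, 11.6 and 10.0 in DA and 7.02 and 5.80 in 5-HT. The median width was 992 bp (quartiles 631 and 1508 bp), and the centre closest to a TSS lay 101 bp from it.

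The name intronic holds for the centre of every region but not for the whole of each one. 1436 of the 3872 regions (37.1%, Wilson interval 35.6 to 38.6) reached into a promoter window, and 1383 (35.7%) overlapped a TSS itself. 1400 of the 1436 (97.5%) reached the promoter window of the gene whose intron held their centre. 1696 regions (43.8%) overlapped an exon, and 2144 (55.4%) touched neither an exon nor a promoter window. The 2436 regions that stayed clear of every promoter window are called away from promoters here, and the 1436 promoter-reaching. This split was made after seeing the data. In comparison, 1.84% of the 7883 DA-only intronic regions (a peak in all 3 DA libraries and in neither 5-HT library) reached a promoter window.

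The shared intronic regions lay close to start sites. The median distance from centre to nearest TSS was 4.14 kb (quartiles 0.403 and 21.1 kb), against 18.3 kb in DA-only intronic regions and 18.6 kb in the other intronic regions of the list. 1114 regions (28.8%) lay within 0.5 kb of a TSS, 531 (13.7%) between 0.5 and 2 kb, 769 (19.9%) between 2 and 10 kb, 1013 (26.2%) between 10 and 50 kb and 445 (11.5%) at 50 kb or beyond. In DA-only regions these shares were 1.42%, 6.22%, 26.9%, 42.6% and 22.9%. Away from promoters the median distance was 14.7 kb in shared regions and 19.0 kb in DA-only regions, so most of the gap in medians lay with the promoter-reaching regions, whose own median was 0.302 kb. Promoter-reaching regions were also wider, with a median of 1.51 kb against 0.757 kb away from promoters and 0.53 kb in DA-only regions.

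Distance to the TSS of the host gene, the gene whose intron holds the centre, had a median of 17.6 kb, with 1714 regions (44.3%) within 10 kb and 1328 (34.3%) beyond 50 kb. Away from promoters the median was 52.8 kb, and 1249 of 2436 (51.3%) lay beyond 50 kb. The first intron of the transcript with the most upstream TSS held 2013 regions (52.0%, Wilson interval 50.4 to 53.6), and the second intron 473 (12.2%). Of the promoter-reaching regions, 87.7% lay in a first intron. Away from promoters the share was 30.9% (29.1 to 32.8), beside 27.7% in DA-only regions away from promoters. In protein-coding genes, first introns hold 29.2% of the intron bases of the transcript with the most upstream TSS. The shares of regions also count regions in no intron of that transcript and in non-coding hosts, so they are not on the same footing as the share of bases. The host was protein-coding for 3695 regions (95.4%), a lincRNA for 113, a processed transcript for 57 and a pseudogene for 7.

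The shared intronic regions as a whole scored high among the peaks of each DA library and near the middle of 5-HT replicate 2. The median score was 6.74, 7.97 and 7.17 in DA replicates 1 to 3 and 5.24 and 3.75 in 5-HT replicates 1 and 2, against 5.12, 4.44 and 4.01 and 4.48 and 3.69 over all peaks of the same libraries. The median percentile within the library was 71.3, 82.7 and 83.6 in the DA and 67.0 and 52.2 in the 5-HT libraries, and 17.3%, 29.9%, 33.3%, 14.3% and 6.95% of the regions stood at or above percentile 90 of these libraries in turn. These values are a description, since the presence of a score chose the regions and 16856 of the 22879 peaks of 5-HT replicate 2 are shared ones. Promoter-reaching regions had medians of 7.40, 9.13 and 8.0 in the DA and 5.58 and 3.98 in the 5-HT libraries, and regions away from promoters 6.29, 7.24, 6.66, 5.03 and 3.61. Shared intergenic regions stood close to the whole group at 6.81, 7.90, 7.35, 5.29 and 3.70, and shared promoter regions above it at 8.64, 11.1, 9.27, 6.15 and 4.39. DA-only intronic regions were lower, at 4.54, 4.97 and 4.62 in the DA libraries.

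Across the 3872 regions, which share their libraries and are not independent, the DA libraries ranked the regions alike, with Spearman correlations of 0.875 to 0.885 between them. The 5-HT pair had 0.566, DA against 5-HT replicate 1 had 0.659 to 0.672, and DA against 5-HT replicate 2 had 0.533 to 0.537. 5-HT replicate 1 thus ranked the regions more like each DA library than like 5-HT replicate 2, and over all 16856 shared regions the 5-HT pair reached 0.669 and the DA pairs 0.890 to 0.903.

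Which shared intronic regions stood relatively higher in one cell type was asked with limma on log2 scores, quantile normalized over all 16856 shared regions. A log2 difference is DA minus 5-HT on that scale, relative to the other shared regions, so deposited scores of the cell types can overlap or even lie the other way where normalized values do not. Deposited scores were higher in the DA libraries in general, so their order at a single region is not a comparison of the cell types. 70 of 3872 regions (1.81%) passed an adjusted p of 0.05 in limma, 21 higher and 49 lower in DA neurons, against 1.05% of all shared regions in either direction, 0.368% higher and 0.682% lower. All but 3 (Med16, Gprc5b and Rap1gap2) lay away from promoters, where 20 were higher and 47 lower. By the same test 1.94% of shared intergenic regions passed (23 higher and 46 lower), and 0.381% of shared promoter and 0.401% of shared exonic regions. Without overlap of normalized values, 624 regions (16.1%) stood above in DA and 845 (21.8%) below, against 17.7% and 17.0% of all shared regions, and all 70 called regions were among them.

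The count rests on libraries and on the way of scaling. Leaving out DA replicate 1, 2 or 3 gave 0 regions past the adjusted threshold in limma, and 1, 0 and 2 of all 16856 shared regions. At an unadjusted p under 0.05 the limma counts were 578, 596 and 573, against 856 with all libraries. Leaving out a 5-HT replicate left 1 library of that cell type, so only the median log2 difference over the shared intronic regions is given. It was -0.05 without 5-HT replicate 1 and -0.03 without 5-HT replicate 2, beside -0.04 with all libraries. With log2 scores centred on the library median in place of quantile normalization, 616 passed, 99 higher and 517 lower. Over all shared regions 10.2% passed, 416 higher and 1298 lower. The median log2 difference with this scaling was -0.13 over the shared intronic and -0.03 over all shared regions. The 5-HT pair varied more than the DA libraries (SD of normalized log2 score 0.300 against 0.168 over all shared regions, 0.320 against 0.169 over the intronic ones). A limma fit with a spread of its own for each cell type, chosen after seeing the data, called 21 regions, 10 higher and 11 lower, all 21 among the 70. It called 44 of all shared regions (0.261%), 17 higher and 27 lower.

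The regions farthest from the TSS of their host lay in 2 genes. Cntnap2 encodes Caspr2, a neurexin-related adhesion protein of axons, and held 3 of the 5 farthest regions. At chr6:47189376-47190097, 2179.7 kb from the TSS, scores were 6.92, 8.31 and 7.72 in DA and 3.91 and 3.27 in 5-HT. At chr6:47125500-47126329, 2116 kb away, they were 6.89, 7.74 and 8.58 in DA and 5.41 and 4.43 in 5-HT. The one at chr6:46911187-46911598, 1901 kb away, scored 6.89, 10.8 and 11.2 in DA and 13.3 and 6.94 in 5-HT, and its log2 difference of -1.0 had a limma adjusted p of 0.0628. The first and second of these Cntnap2 regions had log2 differences of 0.47 and -0.14, and none of the 3 passed the test. The other 2 lay in Gm20388, a gene model on chromosome 8 that spans 4435 kb and many other genes, and their distances of 3873 kb and 1807 kb are taken within that model. Their scores were 8.27, 11.6 and 8.80 in DA and 8.79 and 4.35 in 5-HT at chr8:126307728-126308068 and 11.2, 13.0 and 10.4 in DA and 6.34 and 3.00 in 5-HT at chr8:124241810-124242239.

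The regions with the highest scores in every library, ranked by the lowest of their 5 within-library percentiles, mostly reached a promoter window or matched several places in the genome. The top one lay in Chl1, which encodes a close homologue of the adhesion molecule L1 (chr6:103599042-103599286), with scores of 191, 167 and 199 in DA and 151 and 74.7 in 5-HT. Next came Gm10801 (chr2:98502378-98503138), with 124, 84.6 and 107 in DA and 53.8 and 37.1 in 5-HT, and Filip1l (chr16:57391344-57391808), with 46.4, 72.2 and 51.6 in DA and 33.1 and 18 in 5-HT. The central 200 bp of each of these 3 regions matched 3 places in the genome at 95% identity over 90% of its length. Cdk8, a kinase of the Mediator complex (chr5:147072556-147072943), had 47.1, 81.9 and 42.9 in DA and 29.3 and 15.1 in 5-HT, and Zfp619 (chr7:46772747-46773868) had 21.9, 27.8 and 28.9 in DA and 14.8 and 10.9 in 5-HT. The region of Scai, a cofactor of actin-dependent transcription, had 21.5, 25.5 and 27.5 in DA and 12.1 and 11.5 in 5-HT, and that of Sc4mol, a sterol synthesis enzyme, 24.8, 18.5 and 33.8 in DA and 15.5 and 13.4 in 5-HT. All 4 of these regions reached a promoter window and had a unique centre. Cldn25, with 16.3, 22.4 and 21.0 in DA and 12.6 and 9.60 in 5-HT, also reached one. Of the 10, Camk1d, a calmodulin-dependent kinase (chr2:5299870-5300441), was the one both away from promoters and at 1 place; it lay 335 kb from its TSS and scored 27.5, 41.8 and 30.1 in DA replicates 1 to 3 and 17.3 and 9.57 in 5-HT replicates 1 and 2. In all, 46 regions (1.19%) matched more than 1 place, 12 of them at least 10, none of the matches was in mitochondrial DNA, and 6 of the top 100 were among the 46.

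Genes holding several regions were few and long. Of 19522 protein-coding genes with an intron, 2843 (14.6%) held at least 1 shared intronic region, 578 (2.96%) at least 2, 198 (1.01%) at least 3 and 35 at least 5. The median span was 253 kb for genes with at least 3, 67.1 kb for genes with at least 1 and 16.7 kb for genes with none. By span, 5.25% of genes under 20 kb held a region, 17.2% from 20 to 100 kb, 40.4% from 100 to 300 kb and 59.7% at 300 kb or more, and at least 3 regions were found in 0.0204%, 0.410%, 4.75% and 14.6%. Away from promoters, 1716 genes (8.79%) held at least 1 and 136 at least 3. Of the genes with a shared region, 1316 (46.3%) also held a DA-only region, which was 36.4% of the 3616 genes with a DA-only region. Neighbouring regions in the same host, 919 pairs, were a median of 36.5 kb apart, 85 pairs were closer than 5 kb, and the closest centres were 1054 bp apart.

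Ptprn2, which encodes phogrin, a phosphatase-like protein of dense-core secretory vesicles, held the most regions of any single gene apart from the read-through model Gm20388. It held 13 in 792 kb (chr12:117724193-118516640), 12 of them away from promoters, from 0.361 to 711 kb downstream of its TSS, beside 18 DA-only regions. Median scores over the 13 were 6.74, 8.85 and 7.70 in DA and 5.16 and 3.36 in 5-HT. The region with the highest ranks (chr12:117916208-117916631) scored 11.4, 14.7 and 14.2 in DA replicates 1 to 3 and 5.45 and 4.80 in 5-HT replicates 1 and 2. Its log2 difference was 0.51, and over the 13 regions the log2 difference ran from -0.44 to 0.71 and none passed the test. Gm20388 held 20 (15 away from promoters), with median scores of 6.08, 7.23 and 4.97 in DA and 4.2 and 3.86 in 5-HT. It was the shortest protein-coding or only host of 9 of them.

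3 genes held 8 regions each. Nfib, a nuclear factor I transcription factor of brain development, held 8 regions in 416 kb (7 away from promoters); its highest-ranked one (chr4:82158707-82159526) scored 11.8, 16.4 and 12.4 in DA and 6.71 and 7.38 in 5-HT. Astn2, an astrotactin of neuronal migration along glia, held 8 regions in 1024 kb (7 away from promoters); its highest-ranked one (chr4:65157257-65158256) scored 16.5, 14.5 and 19.3 in DA and 6.99 and 5.40 in 5-HT. Maml3, a Mastermind coactivator of Notch, held 8 regions in 417 kb (8 away from promoters); its highest-ranked one (chr3:51504680-51506249) scored 10.6, 13.6 and 9.90 in DA and 6.79 and 5.92 in 5-HT. These 3 regions had log2 differences of 0.04, 0.52 and -0.06, and over the 8 regions of each gene the differences spanned 0, from -0.53 to 0.54 in Nfib, -0.36 to 0.52 in Astn2 and -0.72 to 0.49 in Maml3. None of the regions in Nfib, Astn2 or Maml3 passed the test.

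5 single-copy genes held 7 regions each. Fyn, a Src-family kinase, held 7 regions in 197 kb (6 away from promoters); its highest-ranked one (chr10:39089088-39091515) scored 15.6, 20.5 and 16.2 in DA and 10.0 and 7.04 in 5-HT. Trio, a guanine exchange factor of small GTPases in axon guidance, held 7 regions in 295 kb (6 away from promoters); its highest-ranked one (chr15:27953674-27956505) scored 11.1, 14.3 and 12.2 in DA and 7.41 and 6.73 in 5-HT. Frmd4a, a FERM-domain scaffold of cell polarity, held 7 regions in 596 kb (6 away from promoters); its highest-ranked one (chr2:4321603-4323823) scored 6.51, 8.04 and 7.14 in DA and 4.94 and 3.60 in 5-HT. The regions of these 3 genes had log2 differences of -0.42 to 0.37, -0.65 to 0.20 and -0.45 to 0.26, and none passed. Grid1, the delta-type glutamate receptor subunit GluD1, held 7 regions in 764 kb (7 away from promoters); its highest-ranked one (chr14:35635953-35636936) scored 7.18, 9.30 and 8.93 in DA and 7.32 and 4.84 in 5-HT. All 7 Grid1 regions had negative log2 differences (-0.92 to -0.23), none past the test. Dclk1, a microtubule-associated doublecortin-like kinase, held 7 regions in 297 kb (6 away from promoters); its highest-ranked one (chr3:55046078-55047723) scored 9.38, 13.8 and 11.2 in DA and 6.78 and 5.61 in 5-HT. Dclk1 differed from the other 4 in that 2 of its regions passed the test, 1 in each direction.

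3 overlapping gene models of 1 locus, 2610005L07Rik, AC152164.1 and Gm17279, held the same 7 regions (chr8:19927022-19978274), with median scores of 6.88, 7.06 and 9.39 in DA and 4.07 and 3.52 in 5-HT. The centre of every one of the 7 matched several places in the genome, so they are not 7 unique addresses, and 1 of them passed the test as higher in DA neurons. This called region had an adjusted p of 0.0920 in limma with a spread of its own for each cell type. The same models ranked high in regions per 100 kb of intron, at 5.50 for AC152164.1 and Gm17279 and 4.72 for 2610005L07Rik. The densest gene with at least 5 regions was AI854517, a lincRNA of 34.3 kb with 5 regions (2 away from promoters) and 16.4 per 100 kb, whose median scores were 3.94, 4.80 and 4.00 in DA and 4.47 and 3.31 in 5-HT. Notch2, a receptor of the Notch pathway, held 5 in single-copy sequence, all away from promoters, at 3.96 per 100 kb, with medians of 4.48, 4.18 and 3.61 in DA and 4.28 and 3.16 in 5-HT and log2 differences of -0.70 to 0.32. All 5 AI854517 regions had negative log2 differences (-0.97 to -0.05), while no Notch2 region passed the test. The AI854517 region at chr7:86669933-86671436 was lower in DA neurons by the test, with 3.81, 4.60 and 4.29 in DA and 6.54 and 4.19 in 5-HT (log2 difference -0.97, limma adjusted p = 0.0247). Its adjusted p was 0.0547 in limma with a spread of its own for each cell type.

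Of all protein-coding genes with an intron 14.6% held a shared region and 8.79% one away from promoters, with a median span of 19.8 kb. 11 of the 13 lists lay above the first of these shares, those of glia and of endothelial cells and pericytes among them. Synaptic adhesion and scaffold genes led with 31 of 42 (73.8%; 66.7% away from promoters; median span 532 kb), ahead of neuronal cytoskeleton and transport with 24 of 35 (68.6%; 51.4%; 92.2 kb). Axon guidance had 35 of 56 (62.5%; 53.6%; 190 kb) and neuronal RNA-binding proteins 17 of 28 (60.7%; 32.1%; 119 kb). Transcription factors of neurons and their progenitors had 33 of 58 (56.9%; 46.6%; 182 kb), and ion channels and transmitter receptors 28 of 55 (50.9%; 43.6%; 291 kb). Chromatin regulators had 21 of 57 (36.8%; 26.3%; 79.3 kb). The part of gene length in these shares was not tested.

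Among synaptic genes, Dlgap1, a postsynaptic scaffold, and the teneurin Odz4 held 6 regions each, Odz2 held 5, Odz3, Nrxn3 and Dlg2 held 4, and Cdh4, Magi1, Magi2 and Ptprs held 3. The highest-ranked region of Dlgap1 (chr17:70982886-70983535) scored 7.12, 9.61 and 9.79 in DA and 6.89 and 5.45 in 5-HT, and that of Odz4 (chr7:103980960-103981836) 7.25, 8.80 and 7.71 in DA and 4.57 and 5.11 in 5-HT. Their log2 differences were -0.35 and -0.07, neither past the test. Of the 69 regions in synaptic genes, 1 was higher in DA neurons by the test (Opcml) and 3 lower (Nrxn3, Ctnna2 and Magi2), with a median log2 difference of -0.07, beside -0.04 over all shared intronic regions. In limma with a spread of its own for each cell type, their adjusted p was 0.0667, 0.0946, 0.0700 and 0.0335. By the main test 1.81% of all shared intronic and 1.05% of all shared regions passed. At these shares the calls in any gene list here and below are too few to set it apart. In the cytoskeleton list Dclk1 held 7 regions, Ank2 and Kif5c 5, Ank3 4, and Gap43, Map1b, Map2, Map4, Dst, Crmp1 and Kif21b 3 (the annotation spells the Map genes Mtap1b, Mtap2 and Mtap4). Gap43, a growth cone protein, and Crmp1, a mediator of semaphorin signalling, had log2 differences of 0.24 to 0.57 and 0.29 to 0.52, none past the test; with scores centred on the library median the lowest were -0.15 in Gap43 and 0.18 in Crmp1. Their median scores were 6.97, 7.82 and 6.22 in DA and 4.68 and 3.04 in 5-HT for Gap43 and 6.94, 7.20 and 8.62 in DA and 4.87 and 3.09 in 5-HT for Crmp1. Of the 57 regions of the list, 1 was higher (Dclk1) and 2 lower (Dclk1 and Kif5c), with a median log2 difference of -0.02.

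Axon guidance genes with several regions were Srgap3 with 5, Sema5b with 4, and Chl1, Robo1 and Nrcam with 3. The top region of Srgap3, a Rac GTPase-activating partner of Robo receptors (chr6:112788678-112789571), scored 8.23, 10.5 and 7.72 in DA and 6.74 and 4.21 in 5-HT, and the top region of Robo1 (chr16:72959205-72960435) 6.24, 6.27 and 6.09 in DA and 3.99 and 3.10 in 5-HT. Of the 59 regions of this list, 1 was higher in DA neurons (Sema3e) and 1 lower (Efna5), with a median log2 difference of -0.12. Among transcription factors, Nfib held 8, Tcf7l1, a Wnt pathway repressor, 6, Myt1l 4, and Gli3 and Nfia 3. The top Tcf7l1 region (chr6:72597282-72597779) scored 6.43, 8.41 and 6.49 in DA and 5.73 and 3.38 in 5-HT, and the top Myt1l region (chr12:30556965-30557962) 10.2, 15.0 and 13.5 in DA and 6.52 and 5.57 in 5-HT. None of the 61 transcription factor regions was higher by the test and 2 were lower (Ebf1 and Tcf7l1), with a median of -0.10. Neither passed in limma with a spread of its own for each cell type (adjusted p = 0.0617 and 0.0724).

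The RNA-binding list had Celf4 with 6 regions and Elavl2 with 3, and its 25 regions held no call in either direction, with a median log2 difference of -0.09 by limma. Celf4, a regulator of splicing and translation, had medians of 4.89, 5.56 and 4.47 in DA and 4.52 and 3.10 in 5-HT, and Elavl2, a neuronal Hu protein, 4.75, 5.91 and 4.55 in DA and 4.65 and 3.27 in 5-HT. Among channels and receptors, Grid1 held 7, Kcnd3, an A-type potassium channel, 6, and Cacna1c and Cacnb4, calcium channel subunits, 3. The medians of Kcnd3 were 4.74, 5.36 and 5.41 in DA and 4.61 and 3.94 in 5-HT, and all its log2 differences were negative (-0.72 to -0.03), none past the test. The 52 regions of this list had a median log2 difference of -0.17, and none was lower in DA neurons by the test. In chromatin regulators, Arid1b and Jarid2 held 3 each. Medians were 6.31, 5.69 and 5.91 in DA and 5.14 and 3.48 in 5-HT for Arid1b, a subunit of the BAF remodelling complex, and 5.19, 5.88 and 5.04 in DA and 5.87 and 3.45 in 5-HT for Jarid2, a partner of the Polycomb machinery. 1 Jarid2 region (chr13:44964934-44965403) matched 11 places. The 30 regions of chromatin regulators held no call by limma and had a median of -0.24. With 1.81% of all shared intronic regions called, no call among 25 or 30 regions does not set a list apart.

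Some of the genes that define the 2 transmitter types held shared regions. In DA identity genes 9 of 25 (36.0%) held at least 1, and in 5-HT identity genes 4 of 13 with an intron (30.8%). Slc18a2, Ddc, Gch1 and Lmx1b are in both lists, and of these Ddc and Lmx1b held regions. Th and Slc6a3, the dopamine synthesis enzyme and transporter, held none, and neither did the 5-HT transporter Slc6a4 or the 5-HT factor Fev; Th held 3 DA-only regions. Ddc, the decarboxylase that both transmitters need, held 4, and the one at chr11:11719991-11720715 scored 6.94, 8.65 and 11.0 in DA replicates 1 to 3 and 7.36 and 4.48 in 5-HT replicates 1 and 2. Lmx1a, a DA factor (chr1:169732025-169734610), had 8.74, 10.7 and 9.08 in DA and 4.68 and 3.08 in 5-HT (log2 difference 0.66, limma adjusted p = 0.0710). Lmx1b, a factor of both types (chr2:33470685-33472786), had 10.0, 14.7 and 10.5 in DA and 5.17 and 3.73 in 5-HT (log2 difference 0.58, limma adjusted p = 0.0992). Nr4a2, a DA factor (chr2:56975573-56976848), had 5.35, 6.42 and 6.15 in DA and 6.49 and 3.07 in 5-HT. Tph2, the 5-HT synthesis enzyme, held a region (chr10:114534284-114534648) with 14.7, 11.5 and 11.0 in DA and 5.33 and 3.68 in 5-HT (log2 difference 0.67, limma adjusted p = 0.138). Nkx2-2, a 5-HT progenitor factor, had 8.41, 5.86 and 7.53 in DA and 5.36 and 4.2 in 5-HT. None of the 12 regions in DA identity genes or the 7 in 5-HT identity genes passed the test. Of all shared intronic regions 1.81% passed and of all shared regions 1.05%, so no call among so few does not set these genes apart. The median log2 difference was -0.10 in the former and 0.29 in the latter, and the regions of Ddc and Lmx1b count in both. Chromatin openness at a gene does not measure its expression.

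Other DA identity genes held 1 region each. Drd2, a dopamine receptor, had 3.80, 3.59 and 3.43 in DA and 3.37 and 3.41 in 5-HT, and Ret, a receptor tyrosine kinase for GDNF-family ligands, had 6.23, 8.96 and 6.72 in DA and 4.91 and 3.93 in 5-HT. Bnc2, a zinc finger protein, had 4.47, 6.32 and 5.99 in DA and 4.89 and 3.24 in 5-HT. Calb1, a calcium-binding protein, had 5.45, 5.95 and 6.87 in DA and 4.45 and 4.21 in 5-HT. Their log2 differences lay between -0.28 and -0.04 and none passed the test.

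Markers of other cell types that a sort could carry along also held regions: 8 of 18 glial genes (44.4%), 4 of 15 endothelial and pericyte genes (26.7%) and 2 of 17 microglial and blood genes (11.8%), beside 14.6% of all protein-coding genes. The median span of the glial genes was 13.9 kb. None of 20 genes of muscle, liver, pancreas and skin did. Slc1a2, a glial glutamate transporter (chr2:102585363-102586273), had 9.31, 14.4 and 11.5 in DA and 4.74 and 3.42 in 5-HT (log2 difference 0.76, limma adjusted p = 0.0522). Slc1a3, the glutamate transporter of radial glia (chr15:8609412-8610235), had 4.67, 4.34 and 4.45 in DA and 5.06 and 3.52 in 5-HT (log2 difference -0.49, limma adjusted p = 0.142). The 2 transporters thus pointed in opposite directions, neither past the test. Aldh1l1 had 12.3, 13.0 and 10.7 in DA and 8.31 and 2.93 in 5-HT, Vim 4.91, 4.61 and 6.22 in DA and 4.55 and 3.59 in 5-HT, Pdgfra 5.33, 5.79 and 5.67 in DA and 4.93 and 3.75 in 5-HT and Cspg4 6.62, 9.33 and 7.37 in DA and 5.59 and 3.51 in 5-HT. Aqp4 had 3.87, 4.24 and 3.74 in DA and 4.01 and 2.90 in 5-HT and Mbp 3.56, 4.45 and 4.60 in DA and 3.68 and 3.16 in 5-HT. The endothelial genes were Pecam1, with 5.42, 4.90 and 4.99 in DA and 4.00 and 4.62 in 5-HT, and Tek, with 5.26, 4.53 and 6.06 in DA and 4.91 and 4.47 in 5-HT. The pericyte gene Pdgfrb had 3.96, 4.2 and 4.28 in DA and 3.64 and 2.85 in 5-HT. Ptprc of blood cells held 2 regions, with medians of 7.82, 10.2 and 8.82 in DA and 5.27 and 3.14 in 5-HT, and Runx1 held 1 with 4.41, 3.41 and 3.42 in DA and 3.97 and 2.89 in 5-HT. The median log2 difference was -0.11 in the 8 glial, -0.16 in the 4 of the endothelial and pericyte list, which shares Cspg4 with the glial list, and 0.17 in the 3 blood regions, none of them called by limma. Gfap, Cdh5 and Cx3cr1 held none, the part of other cells in the scores was not tested, and in bulk libraries fewer cells with an open region and less opening per cell cannot be told apart.

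The 21 regions higher in DA neurons lay in 21 genes, a median of 19.0 kb from the nearest TSS, and 9.52% were in a first intron; the median log2 difference was 1.10. The largest was in Pam, the enzyme that amidates neuropeptides (chr1:99814937-99815517, 177 kb from its TSS), with scores of 13.8, 19.3 and 16.8 in DA replicates 1 to 3 and 4.38 and 3.23 in 5-HT replicates 1 and 2 (log2 difference 1.40, SE 0.15, limma adjusted p = 0.00913). Tmem163, a zinc-binding protein of synaptic vesicles (chr1:129452405-129453626), had 11.7, 16.6 and 14.9 in DA and 3.68 and 3.30 in 5-HT (log2 difference 1.35, SE 0.17, limma adjusted p = 0.0170). A930011G23Rik (chr5:99907894-99909133) had 12.2, 14.9 and 12.5 in DA and 3.50 and 3.07 in 5-HT (log2 difference 1.40, SE 0.16, limma adjusted p = 0.0113). In each of these regions both 5-HT scores were below the median over all peaks of their library. Ptn, the growth factor pleiotrophin (chr6:36672886-36673565), had 12.1, 15.5 and 12.9 in DA and 4.42 and 2.99 in 5-HT (log2 difference 1.25, SE 0.16, limma adjusted p = 0.0167). Camk1d held a second region, 399 kb from its TSS (chr2:5235465-5236714), with 10.5, 12.7 and 9.28 in DA and 3.73 and 2.96 in 5-HT (log2 difference 1.13, SE 0.16, limma adjusted p = 0.0186). Med16, a Mediator subunit, was the promoter-reaching case (chr10:79363376-79364378), with 9.85, 11.1 and 10.7 in DA and 3.37 and 2.87 in 5-HT (log2 difference 1.29, SE 0.15, limma adjusted p = 0.0125). Its score in 5-HT replicate 1 was the lowest above 0 of that library, and that in 5-HT replicate 2 stood at percentile 2.69. All 6 of these regions also passed with a spread of its own for each cell type.

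Sema3e, a secreted semaphorin that guides axons and vessels (chr5:14038962-14039539), had 17.8, 15.0 and 17.5 in DA and 4.78 and 3.71 in 5-HT (log2 difference 1.18, SE 0.19, limma adjusted p = 0.0276), and its adjusted p was 0.0616 in limma with a spread of its own for each cell type. Necab1, a neuronal calcium-binding protein (chr4:14939285-14940733), had 11.8, 13.1 and 13.6 in DA and 4.29 and 3.06 in 5-HT (log2 difference 1.17, SE 0.16, limma adjusted p = 0.0170). Ankrd44, a regulatory subunit of protein phosphatase 6 (chr1:54871720-54872963), had 13.8, 14.3 and 13.2 in DA and 4.99 and 2.85 in 5-HT (log2 difference 1.29, SE 0.22, limma adjusted p = 0.0319). Ttc28 (chr5:111684938-111686384) had 8.39, 13.4 and 10.5 in DA and 3.77 and 2.86 in 5-HT (log2 difference 1.19, SE 0.17, limma adjusted p = 0.0186). In 5-HT replicate 2 the scores of Ankrd44 and Ttc28 lay near the floor, at percentiles 1.44 and 1.94. Smaller differences that passed included Cyfip2, a subunit of the actin-regulating WAVE complex, with 12.6, 17.7 and 14.3 in DA and 5.36 and 3.15 in 5-HT (log2 difference 1.10, limma adjusted p = 0.0252). Opcml, a cell adhesion protein, had 9.96, 9.65 and 8.63 in DA and 3.68 and 2.93 in 5-HT (log2 difference 0.99, limma adjusted p = 0.0277). Its adjusted p was 0.0667 in limma with a spread of its own for each cell type. Of the 21, the regions of A530032D15Rik and Gm15319 matched 7 and 10 places in the genome.

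The 49 regions lower in DA neurons lay in 48 genes, a median of 31.3 kb from the nearest TSS, and 32.7% were in a first intron; the median size of the log2 difference was 0.91. Nrg3, a neuregulin that activates ErbB4 (chr14:40130715-40131089), had scores of 4.67, 5.81 and 6.44 in DA replicates 1 to 3 and 8.05 and 8.74 in 5-HT replicates 1 and 2 (log2 difference -1.35, SE 0.20, limma adjusted p = 0.0195). There, every deposited 5-HT score was above every DA score although 5-HT scores were lower in general. Kif5c, a kinesin-1 heavy chain of axonal transport (chr2:49510884-49511733), had 4.02, 5.15 and 4.28 in DA and 8.16 and 5.11 in 5-HT (log2 difference -1.26, SE 0.16, limma adjusted p = 0.0167), so its deposited scores overlapped while the normalized ones did not. Acss1, a mitochondrial acetyl-CoA synthetase (chr2:150469202-150470376), had 4.61, 7.24 and 5.33 in DA and 7.47 and 7.51 in 5-HT (log2 difference -1.19, SE 0.19, limma adjusted p = 0.0244). Dlgap2, a postsynaptic scaffold (chr8:14549415-14549971), had 3.57, 3.56 and 3.70 in DA and 6.18 and 4.38 in 5-HT (log2 difference -1.12, SE 0.15, limma adjusted p = 0.0170). Ptpro, a receptor phosphatase (chr6:137386400-137386970), had 3.74, 4.08 and 3.33 in DA and 6.02 and 4.49 in 5-HT (log2 difference -1.09, SE 0.15, limma adjusted p = 0.0186). Magi2, a synaptic scaffold (chr5:19702463-19703010), had 3.45, 3.25 and 3.37 in DA and 5.46 and 4.27 in 5-HT (log2 difference -1.06, SE 0.15, limma adjusted p = 0.0191). Its score in DA replicate 1 was the lowest above 0 of that library. The deposited scores of these 4 regions did not overlap either.

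Ddah1, which degrades asymmetric dimethylarginine, held 2 of the 49; the larger (chr3:145553039-145553813) had 4.22, 3.80 and 3.60 in DA and 5.70 and 5.12 in 5-HT (log2 difference -1.09, SE 0.17, limma adjusted p = 0.0247). Adamtsl1, an extracellular matrix protein (chr4:85887850-85888128), had 5.23, 6.46 and 5.18 in DA and 8.51 and 5.33 in 5-HT (log2 difference -1.07, SE 0.16, limma adjusted p = 0.0195). Ebf1, a helix-loop-helix factor of neuronal differentiation (chr11:44655305-44655520), had 4.47, 3.69 and 3.39 in DA and 6.64 and 4.03 in 5-HT (log2 difference -1.02, SE 0.17, limma adjusted p = 0.0299). In Adamtsl1 and Ebf1 the deposited scores overlapped, and for Ebf1 limma with a spread of its own for each cell type gave an adjusted p of 0.0617. Among the smaller ones were Hmga2, an architectural chromatin protein, with 3.52, 3.80 and 4.10 in DA and 5.65 and 4.53 in 5-HT (log2 difference -1.02, limma adjusted p = 0.0244), and Trps1, a GATA-type repressor, with 3.63, 3.69 and 3.32 in DA and 5.70 and 4.10 in 5-HT (log2 difference -1.01, limma adjusted p = 0.0195). Neither overlapped between the cell types. Kcnj10, an inward rectifier potassium channel known from glia, had 4.91, 5.93 and 4.34 in DA and 6.71 and 5.50 in 5-HT (log2 difference -1.0, limma adjusted p = 0.0252). Efna5, an ephrin of axon guidance, had 5.57, 5.58 and 5.27 in DA and 7.36 and 4.56 in 5-HT (log2 difference -0.84, limma adjusted p = 0.0411). In limma with a spread of its own for each cell type, the adjusted p was 0.0547 for Kcnj10 and 0.0920 for Efna5. In Efna5 the deposited score of 5-HT replicate 2 was below those of all DA libraries, and its normalized value was above theirs.

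3 genes held called regions of both directions. In Dclk1, the region at chr3:55177615-55178181 scored 12.7, 17.6 and 16.0 in DA and 5.71 and 3.83 in 5-HT (log2 difference 0.86, limma adjusted p = 0.0338). The region at chr3:55227764-55228429 scored 4.10, 4.41 and 4.24 in DA and 5.74 and 3.92 in 5-HT (log2 difference -0.78, limma adjusted p = 0.0424). A single gene body thus held a region relatively more open in DA and another relatively more open in 5-HT neurons. A930011G23Rik held, beside its higher region, one at chr5:99831240-99832156 with 3.71, 3.95 and 3.68 in DA and 5.59 and 4.26 in 5-HT (log2 difference -0.96, limma adjusted p = 0.0244). Ppfibp2, a liprin, held chr7:114785570-114786819 with 11.0, 10.9 and 12.5 in DA and 3.48 and 3.31 in 5-HT (log2 difference 1.10, limma adjusted p = 0.0361). It also held chr7:114804681-114805539 with 7.59, 7.53 and 6.46 in DA and 8.60 and 6.39 in 5-HT (log2 difference -0.90, limma adjusted p = 0.0338). None of the Dclk1 or Ppfibp2 regions, and not the second A930011G23Rik one, passed in limma with a spread of its own for each cell type, where their adjusted p values were 0.0859 and 0.106 in Dclk1, 0.0616 and 0.0861 in Ppfibp2 and 0.0547 in A930011G23Rik.

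Base composition of the central 200 bp followed position. The median GC content was 55% in all shared intronic regions, 65.5% in promoter-reaching ones, 51.5% away from promoters, 51.5% in shared intergenic, 66% in shared promoter and 48% in DA-only intronic regions, and 49% over all regions. 19 short words were searched on both strands of this window, and a match is a run of letters, not a bound site. The 3 shares of each word are for shared regions away from promoters, then DA-only intronic regions away from promoters, then all regions under 4000 bp of the list. The nuclear receptor word AAGGTCA, known from NR4A and related factors, was in 2.67%, 6.50% and 4.15%. The proneural E-box CAGATG was in 18.6%, 23.0% and 19.5%, the forkhead word TGTTTAC in 3.69%, 5.48% and 3.83%, the homeodomain word TAATTA in 5.83%, 8.48% and 6.38%, and the GATA word AGATAA in 8.17%, 10.9% and 9.21%. These 5 words were less frequent in the shared than in the DA-only regions. The E-box CAGCTG (21.9%, 24.7% and 18.9%) and the AP-1 word TGANTCA (5.54%, 6.59% and 6.14%) were too.

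More frequent in the shared regions were the SOX words ACAAAG (20.7%, 17.1% and 17.5%) and ACAATG (11.2%, 9.80% and 10.5%), the NFI word TTGGCA (15.1%, 13.6% and 13.4%) and the RFX word GTTGCCA (5.54%, 4.30% and 3.85%). The CTCF core CNAGGNGGC (7.84%, 5.25% and 5.40%), the SP and KLF word GGGCGGG (5.95%, 2.00% and 5.33%) and the POU octamer ATTTGCAT (2.13%, 1.83% and 1.75%) were as well. The MEIS word TGACAG had 17.4%, 17.3% and 16.9%. Rare words were the CRE TGACGTCA (0.534%, 0.142% and 0.353%), the ETS word CCGGAAGT (0.328%, 0.116% and 0.573%), the NRF1 word GCGCATGCG (0.164%, 0.0646% and 0.225%) and the REST word TCAGCACCA (0.369%, 0.478% and 0.385%). In shared intergenic regions the shares were 2.36% for AAGGTCA, 19.0% for ACAAAG and 7.79% for CNAGGNGGC, near those of shared regions away from promoters. They were farther apart for CAGCTG (18.5%), GGGCGGG (9.11%), TGTTTAC (2.61%) and CCGGAAGT (0.618%). Promoter-reaching regions held GGGCGGG in 25.1%, beside 34.7% of shared promoter regions. GC content differs between these groups, so words were also counted within bands of it, and 6 are given. Between 40 and 50% GC, AAGGTCA was in 3.15% of shared regions away from promoters and 7.22% of DA-only ones, CAGATG in 19.7% and 22.8%, CAGCTG in 17.9% and 20.9%, and ACAAAG in 25.6% and 20.1%. Between 50 and 60% GC, AAGGTCA was in 2.70% and 5.80%, CAGATG in 19.4% and 25.3%, CAGCTG in 24.9% and 33.1%, and ACAAAG in 20.0% and 13.0%. The bands differed for TAATTA, with 14.9% and 19.4% below 40% GC, 8.75% and 9.45% from 40 to 50%, 3.66% and 4.28% from 50 to 60%, and 1.68% and 0.488% above. They differed for GGGCGGG too, with 0% in both groups below 40% GC, 1.17% and 0.709% from 40 to 50%, 3.49% and 3.60% from 50 to 60%, and 31.9% and 12.7% above; 95 of the 145 shared regions with this word were in the last band. Above 60% GC, AAGGTCA was in 1.68% and 3.41%, CAGATG in 13.8% and 23.4%, CAGCTG in 28.5% and 37.1%, and ACAAAG in 9.73% and 8.78%. Below 40%, AAGGTCA was in 1.49% and 6.37%, CAGATG in 15.7% and 15.9%, CAGCTG in 6.72% and 11.4%, and ACAAAG in 20.1% and 19.7%.

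The central 200 bp are shown for the single-copy region away from promoters with the highest scores (Camk1d) and for regions that passed both limma fits with large differences and hold a listed word: Pam and Tmem163, higher in DA neurons, and Nrg3 and Kif5c, lower. Sequences are of mm9 (NCBIM37), plus strand, 5′ to 3′, with the words of the fixed list found on either strand in capitals; words that overlap or adjoin run together. Camk1d (chr2:5300056-5300255) holds CAGATG and TAATTA, Pam (chr1:99815127-99815326) holds TGTTTAC, and Tmem163 (chr1:129452916-129453115) holds 6 words, those of SOX (both), GATA, proneural E-box, homeodomain and MEIS, of which the MEIS and E-box words share letters, as do the homeodomain and GATA words. Nrg3 (chr14:40130802-40131001) holds CAGATG and TTGGCA, and Kif5c (chr2:49511209-49511408) holds ACAAAG and TTGGCA.
Camk1d: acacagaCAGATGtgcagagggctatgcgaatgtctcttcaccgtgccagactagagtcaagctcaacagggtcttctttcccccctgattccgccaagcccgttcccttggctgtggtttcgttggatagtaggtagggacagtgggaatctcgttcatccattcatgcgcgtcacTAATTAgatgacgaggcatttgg
Pam: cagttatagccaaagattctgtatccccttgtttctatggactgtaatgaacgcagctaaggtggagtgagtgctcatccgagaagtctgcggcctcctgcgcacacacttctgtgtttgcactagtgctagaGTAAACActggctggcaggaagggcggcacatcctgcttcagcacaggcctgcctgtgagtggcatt
Tmem163: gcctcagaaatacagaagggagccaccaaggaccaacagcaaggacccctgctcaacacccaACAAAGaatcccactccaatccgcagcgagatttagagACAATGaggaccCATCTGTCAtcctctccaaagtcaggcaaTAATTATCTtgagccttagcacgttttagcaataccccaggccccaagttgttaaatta
Nrg3: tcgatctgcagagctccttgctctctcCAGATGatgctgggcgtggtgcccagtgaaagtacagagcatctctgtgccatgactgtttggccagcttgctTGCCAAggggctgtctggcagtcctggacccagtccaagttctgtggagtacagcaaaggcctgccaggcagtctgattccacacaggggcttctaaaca
Kif5c: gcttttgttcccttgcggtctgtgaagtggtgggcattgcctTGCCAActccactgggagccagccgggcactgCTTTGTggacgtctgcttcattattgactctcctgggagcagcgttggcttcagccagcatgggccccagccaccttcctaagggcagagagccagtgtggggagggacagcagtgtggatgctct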

How the data were processed

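Peaks were called by the authors in each library with MACS2, after Trimmomatic, Bowtie2 (mm9) and Picard, and close peaks were joined with BEDOPS; the peak-calling threshold is not given in the sources used here. The deposited unit is a score per region and library, taken as it is; its scale and the read depth are unknown, the other value columns hold -1, and 1 line with a misspelled chromosome was read as Y. The region group and the gene lists were chosen with earlier results of these data known. Regions were placed by GENCODE vM1 on NCBIM37; older symbols were matched through RefSeq. Scores were compared with limma 3.58.1 in R 4.3.3 (lmFit, eBayes, Benjamini-Hochberg over 16856 shared regions, adjusted p under 0.05), tested on simulated data. Its p-values measure only spread between libraries, and the 95% Wilson intervals cover counting error only. Named are the 10 genes with most regions (13 with ties), the 5 densest, the 10 regions highest and the 5 farthest, the 10 largest called differences each way, listed genes with at least 3 regions and cell type markers with 1; other names were chosen after their values were seen, and some items are not reported here. Copies were found with BLAST+ 2.17.0 and sequences read with samtools 1.23.1 and pysam 0.24.0 (pandas 2.3.3, SciPy 1.17.1 and NumPy 2.4.6 under Python 3.11.15).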

Additional observations from a re-analysis of the deposited data

How the results depend on the processing

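41 alternatives of 6 results were run, of which 19 kept their result and 22 moved it. Counts and the median distance were called moved beyond a ratio of 1.5. The first-intron shares called moved lay outside the Wilson interval given above for the main share. The number of regions was 2144 with the whole region in the intron, 2044 with the same 22879 top peaks in each library, 673 with the top 10000, 2436 without promoter-reaching regions (chosen after seeing the data) and 3884 to 7431 without 1 library. These alternatives differ in how much they ask of a region. The share in the first intron was 61.9% with any transcript, 58.2% with equal peaks, 30.9% without promoter-reaching regions and 43.0% to 52.0% without 1 library. The median distance to the nearest TSS was 1.42 kb with equal peaks and 14.7 kb without promoter-reaching regions; the cause was not tested. The limma count was 616 with median centring, 21 with a spread of its own for each cell type (chosen after seeing the data), 1469 by lack of overlap and 0 to 770 without 1 library. Where 5-HT had 1 library left, it was assumed to vary like the DA libraries, and those counts are not given. With the replicate block limma called 0 regions (596 at an unadjusted p under 0.05); the libraries share 2 replicate numbers and nothing else, with correlations of their deviations of -0.0086 and 0.026. Kept were, among others, the count without a width limit (3894) and with a wider promoter window (2654), and the limma count with normal scores (85) and on the intronic regions alone (61). With 2 to 3 libraries per cell type and unknown depth, a region without a call is not shown to be equal.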

Other observations

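Chromosome X held 86 of the shared intronic regions (2.22%), with 4.22% of the protein-coding genes, and chromosome Y held 0. Of the 992 intronic regions of any kind on chromosome X, 8.67% were shared intronic regions, beside 7.50% of all 51602 intronic regions.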
